A study of Mus musculus with 9 samples.

Results

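The genes described here are the expressed long intergenic noncoding RNAs (lincRNAs) of mouse lung, taken from the RNA of naive left lungs and of left lungs transplanted between mouse strains. They are the rows that the deposited tables type as lincRNA and that had a mean of at least 100 reads over the 9 libraries. The rule kept 53 of 1352 lincRNA rows, from 23944 rows in all. These 53 rows (3.92% of the lincRNA rows) held 96.4% of all reads assigned to lincRNAs. The rows were chosen by their mean read count over both arms, so their abundance is a description and not a finding. Just inside the threshold lay A530017D24Rik with a mean of 101 reads and Gm26782 with 101.8 reads, and just outside lay Gm17354 with 97.2 reads and 5430416N02Rik with 96.8 reads. Because the mean runs over naive lungs and grafts together, a row could enter through the arm in which it was high. Of the 53 rows, 42 had a mean of at least 100 reads in both arms, 8 were under 100 reads in the grafts and 3 (1200007C13Rik, Gm16685 and E230013L22Rik) were under 100 reads in the naive lungs. All 53 passed the filter on low counts.

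Each group holds 3 libraries from whole left lungs of adult wild-type mice. Naive lungs came from C57BL/6 mice that had no operation. The cold-ischemia grafts were C57BL/6 lungs stored at 0 °C for 24 h, placed into Balb/C recipients and reperfused for 2 h. Donors of the shock grafts, also C57BL/6, first went through 4 h of hypovolemic shock, at a mean arterial pressure of 15 ± 5 mmHg, and 20 h of recovery. Their lungs then had the same storage, the same transplantation into Balb/C recipients and the same reperfusion. A graft holds donor tissue and the recipient's blood cells, and all 6 grafts share the surgery, the strain mismatch and the cold storage. The labels number the lungs and name no animals, so p-values measure the spread between these lungs. All 3 naive libraries carry a note pointing to another series, so a batch and the graft state cannot be told apart. For 2 grafts the sample title and the deposited tables give opposite groups: cold-ischemia replicate 2 and shock replicate 3. Titles were followed. The shallowest library (naive replicate 2) had 18913487 counts and the deepest (naive replicate 3) 34986276, and Sftpc, the surfactant protein of alveolar type II cells, stood at 7996 to 14458 counts scaled to library size (CPM) in all 9 libraries.

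A lincRNA is a long transcript without a long open reading frame, transcribed between coding genes and often, but not always, spliced. Some act in the nucleus: Malat1 gathers at nuclear speckles, which hold splicing factors, and Neat1 is the RNA scaffold of paraspeckles. Others, such as the small nucleolar RNA host genes (Snhg), are spliced to release small nucleolar RNAs (snoRNAs) from their introns, and some lie beside a coding gene and are transcribed along with it. Ptgs2os2 (lincRNA-Cox2) is known as an RNA induced with inflammatory genes in macrophages, and Fendrr and Braveheart as RNAs of the embryonic mesoderm.

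Among the most abundant of the 53 was 1700020I14Rik, named Oip5os1 by RefSeq and also known as Cyrano, an RNA whose conserved site for the microRNA miR-7 directs the decay of that microRNA. Its site is shown because the level of this RNA was lower in all 6 grafts, as given further on. In the mature miR-7a-5p (RefSeq) the seed, bases 2 to 8, is in capitals. In the GENCODE M21 transcript of Oip5os1, of 8300 bases, the seed match is in capitals, in DNA letters and mm10 coordinates.
mmu-miR-7a-5p: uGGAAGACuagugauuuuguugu
Oip5os1 extended site (chr2:119602134-119602161, plus strand): agaacaacaaaatcaccaatGTCTTCCa
Oip5os1 seed match only (chr2:119599944-119599971, plus strand): cttcaggttttttttttaatGTCTTCCa
The extended site has its seed match at transcript bases 2952 to 2958 and, after 4 bases between, a further run of 13 pairing bases that reaches from base 11 to base 23 of miR-7a-5p. The other seed match, at transcript bases 762 to 768, has no pairing run longer than 3 bases beyond it. Mature microRNAs were not measured here.

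The RefSeq promoter table (GRCm38.p6, 250 bases before to 50 after the start) had entries for 27 of the 53 lincRNAs. Both strands were searched for 5 motifs, and their share among all 32851 promoters of the table is given beside the count among these 27. The AP-1 letters TGACTCA were held by 1 of the 27 lincRNA promoters and by 5.20% of all promoters. The CRE letters TGACGTCA were held by 2 of the 27 and by 1.79% of all. The NF-kB motif, with its 10 letters, was held by 3 of the 27 and by 1.63% of all. The E-box CACGTG was held by 1 of the 27 and by 7.15% of all promoters. The TATAAA letters of a TATA box were held by 1 of the 27 and by 13.6% of all. No motif overlapped another in the windows shown. Of the 10 promoters that belong to the lincRNAs with the largest rises and falls, 3 held a match. They are shown with that of Snhg1, with the matched letters in capitals, because each of these lincRNAs changed in the grafts and 3 of the 4 changed along with a tested coding gene on the other strand.
E230013L22Rik promoter (chr8:11477679-11477978, plus strand): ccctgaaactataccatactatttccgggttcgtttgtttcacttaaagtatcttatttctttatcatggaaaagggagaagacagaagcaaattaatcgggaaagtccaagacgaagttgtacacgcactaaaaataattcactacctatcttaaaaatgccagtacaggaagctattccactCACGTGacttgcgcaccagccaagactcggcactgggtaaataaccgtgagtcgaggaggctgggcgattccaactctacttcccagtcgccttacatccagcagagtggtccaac
Gm9917 promoter (chr9:107566916-107567215, minus strand): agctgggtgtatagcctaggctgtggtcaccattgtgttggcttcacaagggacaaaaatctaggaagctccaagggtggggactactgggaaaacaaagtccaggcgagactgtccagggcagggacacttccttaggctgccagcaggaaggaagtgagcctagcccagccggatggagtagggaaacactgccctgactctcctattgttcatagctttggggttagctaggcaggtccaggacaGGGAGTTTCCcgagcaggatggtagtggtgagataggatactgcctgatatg
B230354K17Rik promoter (chr17:45433581-45433880, plus strand): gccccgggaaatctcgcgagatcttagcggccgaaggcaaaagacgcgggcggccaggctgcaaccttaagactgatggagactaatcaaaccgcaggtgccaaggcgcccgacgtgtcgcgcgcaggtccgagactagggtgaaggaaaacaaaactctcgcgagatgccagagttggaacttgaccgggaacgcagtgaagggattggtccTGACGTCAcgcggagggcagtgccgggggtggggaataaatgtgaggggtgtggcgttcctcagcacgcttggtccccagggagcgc
Snhg1 promoter (chr19:8723237-8723536, plus strand): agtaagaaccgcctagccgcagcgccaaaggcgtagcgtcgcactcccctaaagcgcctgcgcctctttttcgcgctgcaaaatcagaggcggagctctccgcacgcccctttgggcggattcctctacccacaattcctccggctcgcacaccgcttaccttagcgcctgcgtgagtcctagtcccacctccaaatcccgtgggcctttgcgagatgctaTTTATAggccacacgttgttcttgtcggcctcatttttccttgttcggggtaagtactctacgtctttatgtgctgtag
Counted from the RefSeq start, the E-box of E230013L22Rik begins at -66, the NF-kB letters of Gm9917 at -2, the CRE of B230354K17Rik at -37 and the TATA letters of Snhg1, on the reverse strand, at -29. The Snhg1 window also covers the start of Slc3a2 on the other strand, 127 bp away. A match of letters is a description and does not show a bound factor.

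Most lincRNA reads came from 1 row. Yam1 (Gm42418 in GENCODE M21, where an annotated ribosomal RNA on the opposite strand covers 99.5% of its exonic bases) took 0.320% to 1.63% of all reads in a library. Its level was 3878, 3218 and 14422 CPM in the naive lungs, 13358, 5445 and 3320 CPM in the cold-ischemia grafts and 12465, 14575 and 5140 CPM in the shock grafts. High and low libraries occurred in every group, and the fold change (0.31 ± 0.57 on the log2 scale) did not pass the test. The labels do not state whether the libraries kept the strand, so reads of Yam1 and of this ribosomal RNA cannot be told apart. The other 52 lincRNAs together took 0.156% to 0.194% of the reads, with the naive lungs (0.156% to 0.186%) and the grafts (0.157% to 0.194%) overlapping.

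**Figure D1:**
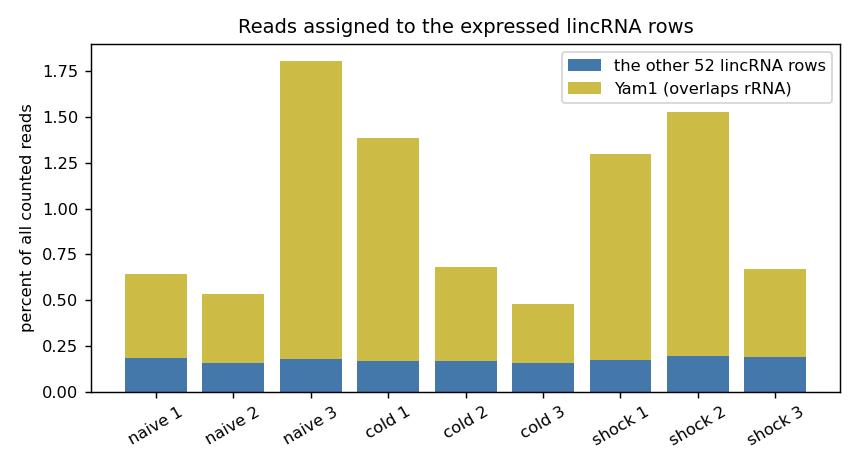
Percent of all counted reads (vertical axis) assigned to the expressed lincRNA rows in each of the 9 libraries, with Yam1 stacked on the other 52 rows. The 52 rows hold 0.156% to 0.194% in every library, while Yam1 moves the total between 0.478% and 1.81% in no order by group.

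Compared per length, by the deposited FPKM (reads scaled to gene length and library total), Yam1 led with a mean of 4520 over the 9 libraries. Gm26809 followed with 122, then Malat1 with 64.3, AU020206 with 32.8 and Gm20645 with 23.7. Of these, Gm26809 stood at a mean FPKM of 14.6 in the naive lungs and 176 in the grafts, and Gm20645 at 3.17 and 34.0, so both owed their place to the grafts. AU020206 went the other way, from 55.5 to 21.4 FPKM, but its place rests on a deposited length of 656 bases, while its exons cover 3189 bases in GENCODE M21. FPKM values of a graft are scaled to its own total, so a difference between arms was tested only on counts.

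Against naive lungs, 12 of the 53 lincRNAs were higher in the grafts, 18 were lower and 23 did not pass the test (edgeR quasi-likelihood test, adjusted p under 0.05 over 15834 genes). Of all genes tested, 41.8% passed this comparison, 22.1% higher and 19.7% lower, so the share of lincRNAs that was higher (22.6%) was near that of all genes and the share that was lower was 34.0%. Since 11 of the 53 rows reached 100 reads in 1 arm only, the same count was taken over the 42 with 100 reads in both arms, where 9 were higher and 13 lower. The median log2 fold change of the 53 was -0.18, beside -0.05 over all genes, and single values ran from -1.94 to 3.93. Of the 12 rises, 6 lay above 2 on the log2 scale and the other 6 below 1.2. Of the 18 falls, 7 lay below -1. Among the 293 other lincRNA rows tested, 13.3% were higher and 13.7% lower, among 14687 protein-coding genes 22.5% and 20.1%, with levels not matched between these types. Under upper-quartile scaling, which moved the median of all genes from -0.05 to -0.25, 11 lincRNAs were higher and 24 lower, against 17% and 31.8% of all genes, and in the shock grafts alone 10 were higher and 20 lower, against 16.9% and 29.4% of all genes.

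**Figure D2:**
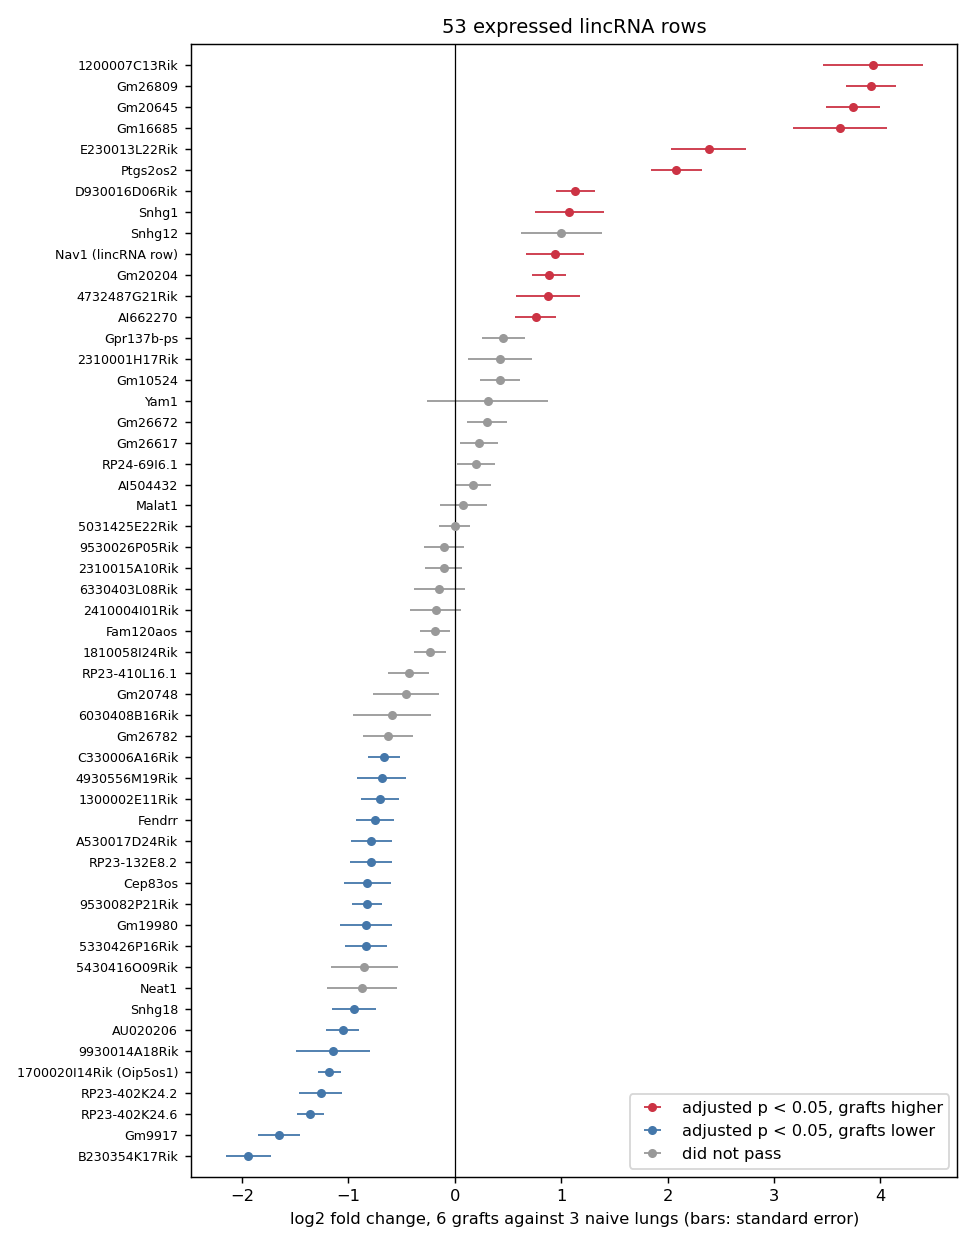
Log2 fold change of grafts against naive lungs for each of the 53 lincRNA rows, from edgeR over 9 libraries; bars are standard errors and colour gives the call at an adjusted p under 0.05. The 6 rows at the top, from 2.08 to 3.93, stand apart from the other 6 that were called higher.

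The largest rises and falls named below were chosen among called rows whose naive and graft libraries did not overlap. Their lack of overlap was required by that choice. Among all genes tested, 20.9% did not overlap with the grafts higher and 20% with the grafts lower. The 4 largest rises were of 12.3-fold to 15.2-fold. Gm26809, a spliced lincRNA (chr6:18844220-18847360, mm10, plus strand), stood at 33.6, 38.7 and 40.2 CPM in the naive lungs. It reached 679, 492 and 419 CPM in the cold-ischemia grafts and 494, 543 and 768 CPM in the shock grafts. Every graft was far above every naive lung, and the rise was 15.1-fold (log2 3.91 ± 0.23, adjusted p = 1.18e-06, edgeR). An opposite-strand lincRNA, Gm20186, shares 28.7% of its exonic bases, so its reads are uncertain to that extent. Lsm8, a subunit of the ring that binds U6 snRNA, lies 1219 bp away and had a log2 fold change of -0.28 ± 0.18, which did not pass.

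Gm20645 (chr11:23736847-23740357, minus strand) lies 1157 bp downstream of Rel, the gene of the NF-kB subunit c-Rel, on the same strand in the deposited coordinates. Its level was 10.4, 9.86 and 8.45 CPM in the naive lungs, 141, 140.2 and 131 CPM in the cold-ischemia grafts and 146, 70.2 and 143 CPM in the shock grafts. The groups did not overlap, and the rise was 13.4-fold (log2 3.74 ± 0.25, adjusted p = 2.48e-06, edgeR). Rel itself went from 5.20 to 7.24 CPM in the naive lungs to 58.4 to 143 CPM in the grafts (log2 4.24 ± 0.31), and shock replicate 2 was the lowest graft for both. GENCODE M21 has no such identifier and its exons of Rel cover the whole of Gm20645, so reads of Gm20645 may belong to Rel.

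1200007C13Rik (chr2:167827693-167833646, minus strand) was low in the naive lungs, at 0.486, 0.181 and 0.961 CPM from 17, 4 and 38 reads. It stood at 8.16, 6.07 and 6.69 CPM in the cold-ischemia grafts and at 8.45, 7.67 and 17.3 CPM in the shock grafts. No graft overlapped a naive lung, with a 15.2-fold rise (log2 3.93 ± 0.47, adjusted p = 9.59e-05, edgeR). Its nearest coding gene, 98411 bp away, is Ptpn1, the tyrosine phosphatase PTP1B, which was also higher (log2 1.67 ± 0.18, adjusted p = 5.31e-05). Gm16685 (chr3:7612705-7690001, plus strand) starts within the 5′ end of Il7, the gene of a lymphocyte growth factor, on the opposite strand and runs away from it, with the starts 722 bp apart. Its naive levels were 0.773, 0.995 and 0.329 CPM, and its graft levels 9.39, 10.5 and 4.02 CPM after cold ischemia and 8.2, 6.93 and 11 CPM after shock. All grafts were higher (log2 3.62 ± 0.44, adjusted p = 0.000109), while Il7 stayed between 0.897 and 3.85 CPM in all libraries (log2 0.11 ± 0.35). These 2 lincRNAs, with E230013L22Rik, are the 3 that reached 100 reads only in the grafts.

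E230013L22Rik (chr8:11477929-11480241, plus strand) overlaps the opposite-strand gene Rab20, a small GTPase of endosomes and phagosomes, which covers 19.2% of its exonic bases. Its level was 2.66, 1.95 and 0.733 CPM in the naive lungs, 10.02, 8.65 and 11.1 CPM after cold ischemia and 7.57, 8.37 and 9.98 CPM after shock (log2 2.39 ± 0.35, adjusted p = 0.000377). Rab20 was higher too, from 5.29 to 6.75 CPM to 51.3 to 66.3 CPM (log2 3.37 ± 0.16). Because the strand of the reads is not known, reads of E230013L22Rik may in part belong to Rab20. The lincRNA with a known part in inflammation, Ptgs2os2 (chr1:150159043-150164948, minus strand), stood at 3.83, 2.67 and 3.11 CPM in naive lungs, 15.2, 10.9 and 15.5 CPM after cold ischemia and 17.7, 10.01 and 12.6 CPM after shock. The lowest graft was above the highest naive lung, and the rise was 4.24-fold (log2 2.08 ± 0.24, adjusted p = 7.82e-05). Ptgs2, the gene of the prostaglandin-forming cyclooxygenase COX-2, lies 50816 bp away and rose further, from 9.86 to 20.9 CPM to 351 to 754 CPM (log2 5.12 ± 0.35). Of 9 tested noncoding RNAs listed for inflammation, stress and p53, Ptgs2os2 and Neat1 among them, 4 were higher and 1 lower. Over all genes tested, 22.1% were higher and 19.7% lower.

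**Figure D3:**
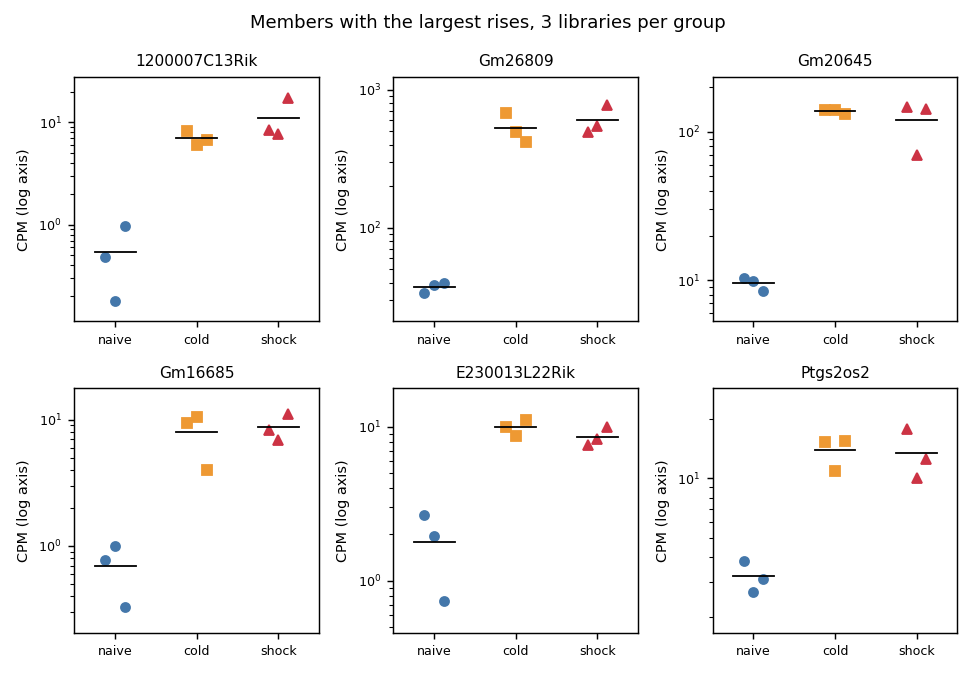
CPM (log axis) of the 6 lincRNAs with the largest rises, 1 point per library and a line at the mean of each group of 3. In all 6 panels every graft lies above every naive lung, which the choice of the named rises required, and the cold-ischemia and shock grafts overlap.

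The smaller rises among libraries that did not overlap included those of D930016D06Rik, the Nav1 row and AI662270. D930016D06Rik, which RefSeq annotates as the protein-coding gene Thoc2l, went from 6.50 to 6.88 CPM in naive lungs to 9.83 to 21.7 CPM in grafts (log2 1.13 ± 0.18, adjusted p = 0.00071). The row with the symbol Nav1 carries the identifier that GENCODE M21 names Gm38399, a lincRNA on the strand of the coding gene Nav1. It went from 3.17 to 4.68 CPM to 4.80 to 10.1 CPM (log2 0.95 ± 0.27, adjusted p = 0.0178), and its adjusted p was 0.0757 without naive replicate 1 and 0.083 without naive replicate 2, over a range of 0.003 to 0.083 in all its alternatives. AI662270, 8422 bp from the Schlafen gene Slfn3, went from 4.98 to 7.37 CPM to 8.17 to 13.1 CPM (log2 0.76 ± 0.19, adjusted p = 0.00867), with an adjusted p of 0.0531 without naive replicate 1, the highest of its alternatives (lowest 0.000622).

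None of the falls was as large as the 6 largest rises on the log2 scale. The mean read count takes in 6 grafts and 3 naive lungs, so it admits rows high in the grafts more readily. Of the 6 largest rises, 3 reached 100 reads only in the grafts, so rises and falls are not compared on equal terms. B230354K17Rik (chr17:45433852-45442544, plus strand) fell the furthest. It stood at 10.6, 9.64 and 10.8 CPM in the naive lungs, 1.54, 2.46 and 2.63 CPM after cold ischemia and 4.18, 3.14 and 2.53 CPM after shock, a 3.83-fold fall (log2 -1.94 ± 0.21, adjusted p = 5.93e-05). It is 1 of the 8 rows under 100 reads in the grafts, and its start lies head to head with that of Cdc5l, a splicing factor 145 bp away, which had a log2 fold change of 0.09 ± 0.12 and did not pass. In GENCODE M21 the opposite-strand gene Spats1 covers 16.0% of the exonic bases of B230354K17Rik, so its reads are uncertain to that extent. Gm9917 (chr9:107558810-107568415, minus strand) stood at 31.5, 35.6 and 36.0 CPM in the naive lungs, 10.02, 10.1 and 10.7 CPM after cold ischemia and 17.2, 8.87 and 8.81 CPM after shock (log2 -1.65 ± 0.20, adjusted p = 0.000105). Naive lungs and grafts did not overlap, which the choice of the named falls required. It overlaps Tusc2 on the opposite strand, which fell too (log2 -0.56 ± 0.13, adjusted p = 0.00533). By the gene models of GENCODE M21 it also overlaps Hyal2 on the opposite strand, named here after its value was seen. Hyal2 fell further, from 63.7 to 104 CPM to 12.2 to 20.7 CPM (log2 -2.18 ± 0.20, adjusted p = 1.55e-05, edgeR). In GENCODE M21 the opposite-strand gene Rassf1 covers 41.5% of the exonic bases of Gm9917, so the reads of Gm9917 are uncertain.

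Oip5os1 (1700020I14Rik, chr2:119594297-119607502, plus strand), whose miR-7 site is shown above, shares no exonic base with another gene in GENCODE M21. Its level was 207, 227 and 264 CPM in the naive lungs, 105, 105 and 116 CPM in the cold-ischemia grafts and 100.4, 91.1 and 100.3 CPM in the shock grafts. The 6 grafts lay within 91.1 to 116 CPM, all below the naive lungs, and the fall was 2.26-fold (log2 -1.18 ± 0.11, adjusted p = 1.94e-05). Oip5, the centromere protein gene 2010 bp away, stayed between 0.299 and 0.904 CPM (log2 0.10 ± 0.44). Of 12 tested genes of microRNA processing, 1 was higher and 5 were lower: Ago4 (log2 -0.87 ± 0.11) and Ago1 (-0.85 ± 0.14), Argonaute proteins that carry microRNAs, fell, and Ago2 (0.79 ± 0.15) rose. Of 4 tested noncoding RNAs listed for transcript stability and growth control, Oip5os1 was the 1 that passed. Beside these 2 lists, 22.1% of all genes tested were higher and 19.7% lower.

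RP23-402K24.6 (chr7:39566946-39570556, plus strand) fell from 22.9, 21.9 and 24.7 CPM to 7.30, 9.18 and 8.68 CPM after cold ischemia and 9.37, 9.62 and 10.3 CPM after shock (log2 -1.36 ± 0.13, adjusted p = 2.09e-05). RP23-402K24.2 (chr7:39552496-39565319), just upstream on the same strand, fell by 1.26 ± 0.20 on the log2 scale (adjusted p = 0.000617). Both share bases with the same GENCODE M21 lincRNA, Gm37494, so they may be pieces of 1 transcript and are not independent. RP23-402K24.2 had a mean of 202 reads in the naive lungs and 57.7 in the grafts. It was above the abundance threshold only in the naive arm, so the choice of rows is part of its fall. AU020206 fell from 28.5 to 33.9 CPM to 10.2 to 17.6 CPM (log2 -1.05 ± 0.16, adjusted p = 0.000386), with no exonic base shared. The remaining falls among the 10 largest that did not overlap were those of Snhg18, given below, and of Dubr (5330426P16Rik), 9530082P21Rik and Cep83os. Dubr went from 33.9 to 42.6 CPM to 12.5 to 26.5 CPM (log2 -0.83 ± 0.20), 9530082P21Rik from 25.5 to 30.9 CPM to 13.2 to 18.8 CPM (-0.83 ± 0.14) and Cep83os from 6.63 to 11.4 CPM to 3.94 to 6.51 CPM (-0.82 ± 0.22). Opposite-strand genes share 26.2% of the exonic bases of 9530082P21Rik, so its reads are uncertain to that extent. Cep83os missed the threshold without naive replicate 1 (adjusted p = 0.0772) and without naive replicate 2 (0.0593), and its alternatives went down to 0.00402. Just inside the abundance threshold, A530017D24Rik had a log2 fold change of -0.78 ± 0.19 (adjusted p = 0.00785) and Gm26782 one of -0.63 ± 0.23 (0.0518). A530017D24Rik had a mean of 168 reads in the naive lungs and 67.5 in the grafts, and Gm26782 158 and 73.8. Both were above the abundance threshold only in the naive arm, so the same limit holds for their values.

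Of the lincRNAs of nuclear bodies, neither passed the test over all 6 grafts. Malat1 stood at 431, 308 and 545 CPM in the naive lungs, 378, 431 and 321 CPM after cold ischemia and 512, 722 and 401 CPM after shock. All groups overlapped, and the log2 fold change was 0.08 ± 0.22 (adjusted p = 0.789), or -0.12 under upper-quartile scaling. Neat1 stood at 252, 135 and 118 CPM in the naive lungs, 61.6, 59.7 and 84.5 CPM after cold ischemia and 107.1, 199.8 and 63.4 CPM after shock. Every cold-ischemia graft was below every naive lung, while the shock grafts overlapped both. Over all grafts the log2 fold change of Neat1 was -0.87 ± 0.33 (adjusted p = 0.0536), and among its alternatives the adjusted p was 0.0199 under upper-quartile scaling, 0.031 by DESeq2 and 0.0065 without shock replicate 2, over a range of 0.0065 to 0.316 in all. Among the protein-coding genes of these bodies, 6 of 8 nuclear speckle genes were higher and none lower, among them the splicing factors Srsf3 (1.05 ± 0.15) and Srrm2 (1.05 ± 0.18), and 5 of 11 paraspeckle genes were higher and 2 lower, with Pspc1 at 0.96 ± 0.13. Of all genes, 22.1% were higher and 19.7% lower. Of 6 tested RNAs listed for nuclear architecture, Malat1 and Neat1 included, none was higher and 1 was lower.

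The 3 snoRNA host genes among the 53 did not move together. Snhg1 (chr19:8723496-8726442, plus strand), in whose span GENCODE M21 places 8 snoRNAs, stood at 7.15, 5.20 and 4.93 CPM in the naive lungs, 13.2, 6.11 and 12 CPM after cold ischemia and 11, 21.9 and 9.76 CPM after shock. Cold-ischemia replicate 2 lay within the naive range, and the rise of 2.11-fold passed (log2 1.08 ± 0.33, adjusted p = 0.0215) but not without naive replicate 2 (0.0832) or naive replicate 3 (0.0851), the highest of its alternatives (lowest 0.00213). Slc3a2, the heavy chain of amino acid transporters, whose start lies head to head with that of Snhg1 in the window shown above, rose from 172 to 206 CPM to 310.0 to 417 CPM (log2 0.91 ± 0.14). Snhg12, which spans 5 snoRNAs, stood at 5.29, 2.94 and 2.73 CPM in naive lungs, 8.80, 3.61 and 7.29 CPM after cold ischemia and 5.48, 12.9 and 6.37 CPM after shock. Its shock grafts lay above the naive lungs and its cold-ischemia grafts overlapped them, and the difference over all grafts did not pass (log2 1.00 ± 0.38, adjusted p = 0.0544). Snhg1 and Snhg12 had the same lowest graft, cold-ischemia replicate 2, and the same highest graft, shock replicate 2.

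Snhg18 (chr15:32240569-32244662, minus strand), which spans Snord123, went the other way, from 18, 18.4 and 16.9 CPM to 10.4, 10.2 and 15.3 CPM after cold ischemia and 7.66, 4.68 and 8.95 CPM after shock. No graft reached the naive range (log2 -0.95 ± 0.21, adjusted p = 0.00408). Sema5a, a semaphorin whose start lies 151 bp away head to head, had a log2 fold change of -0.27 ± 0.16 and did not pass. Over 17 tested snoRNA host genes of all types, 2 were higher, 3 lower and 12 did not pass. Of 8 genes of the snoRNP proteins, which bind the snoRNAs that these hosts release, 4 were higher and 2 lower, with Nop58 at 2.23 ± 0.18 and Dkc1 at -0.54 ± 0.16. Of 10 nonsense-mediated decay factors, which remove spliced host transcripts, 4 were higher and none lower, with Smg1 at 0.94 ± 0.15. Of 12 genes of the nuclear RNA exosome and its adaptors, 3 were higher and 2 lower, with Rbm7 at 0.96 ± 0.11. Beside each of these lists stand 22.1% higher and 19.7% lower of all genes tested, and no list was tested against these shares.

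**Figure D4:**
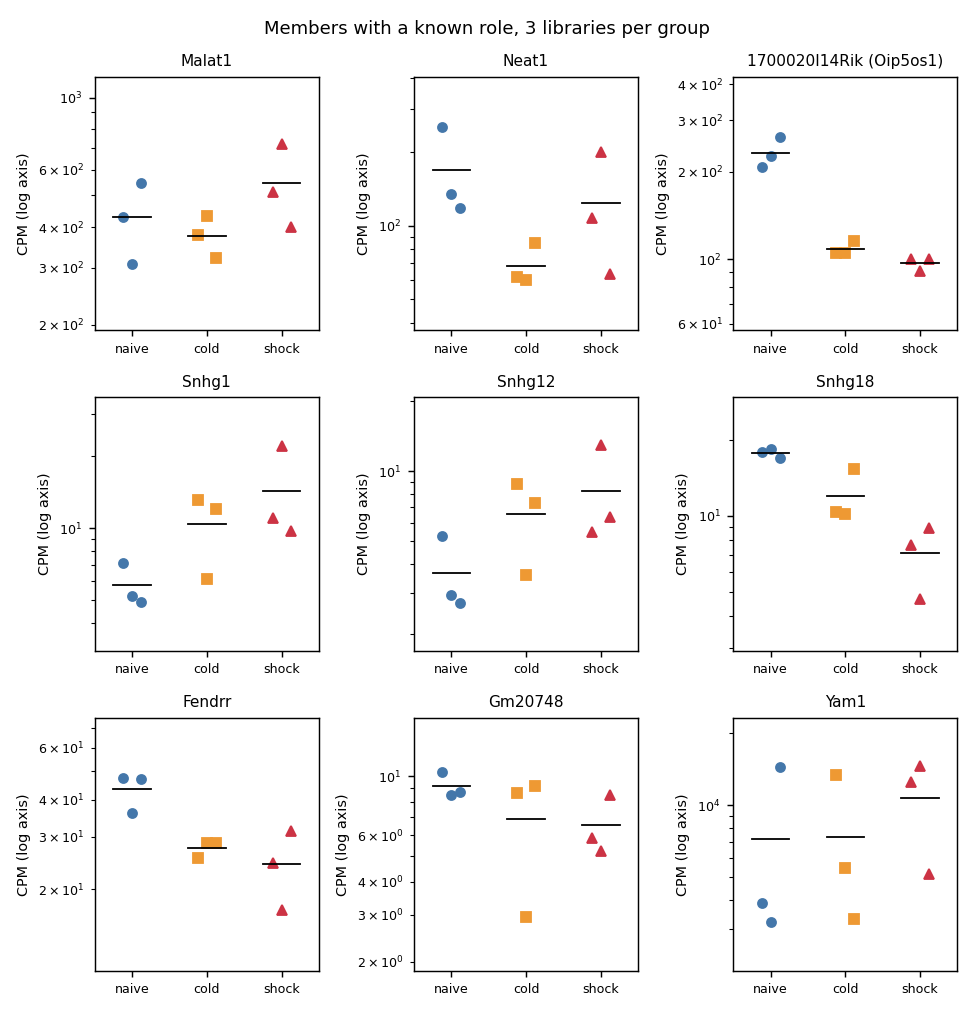
CPM (log axis) of 9 lincRNAs with a known role or a high level, 1 point per library and a line at the mean of each group of 3. Oip5os1, Snhg18 and Fendrr are lower in every graft than in any naive lung, while Malat1 and Yam1 overlap between all groups.

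Fendrr (chr8:121054882-121083110, minus strand), an RNA of lung and body wall mesoderm, stood at 47.3, 36.1 and 46.9 CPM in the naive lungs. It stood at 25.5, 28.5 and 28.7 CPM after cold ischemia and at 24.4, 17 and 31.3 CPM after shock, with no overlap (log2 -0.75 ± 0.18, adjusted p = 0.00635). Foxf1, a transcription factor of lung mesenchyme whose start lies 1276 bp away head to head, went from 318 to 344 CPM to 81.5 to 263 CPM (log2 -1.01 ± 0.29, adjusted p = 0.0177). Shock replicate 2 was the lowest library and shock replicate 3 the highest graft for both. Braveheart (Gm20748) stood at 10.4, 8.5 and 8.72 CPM in naive lungs, 8.62, 2.95 and 9.19 CPM after cold ischemia and 5.86, 5.23 and 8.54 CPM after shock, and did not pass (log2 -0.46 ± 0.31, adjusted p = 0.264). Of 8 tested RNAs listed for lung and mesoderm development, Fendrr and Braveheart included, 1 was higher and 2 were lower, beside 22.1% and 19.7% of all genes.

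By position in the deposited coordinates, 23 of the 53 lincRNAs were plainly intergenic, 10 overlapped a coding gene on the opposite strand, 9 started within 2 kb of a coding gene's start head to head, 10 lay within 5 kb downstream of a coding gene on its strand and 1, the Nav1 row, overlapped a coding gene on its strand. Of the 23 intergenic lincRNAs, 4 were higher, 8 lower and 11 did not pass. Of the 10 downstream ones, 3 were higher and 3 lower, and of the 9 head-to-head ones 1 was higher and 4 were lower. Among all genes tested, 41.8% were called, 22.1% higher and 19.7% lower. Whether any position class differs from these shares was not tested. By the gene models of GENCODE M21, 45 of the 53 kept their class, and 6 overlapped a coding gene on its strand, all of them called (3 higher, 3 lower), whose reads may belong in part to that gene. Of the 45 identifiers found in GENCODE M21, 26 are lincRNA there, 9 antisense or bidirectional, 6 processed transcripts and 2 protein-coding (5430416O09Rik, now Spaar, and 6030408B16Rik, now Smim41, both named after the count was seen). In all, 16 of the 53 share over 20% of their exonic bases with another gene in GENCODE M21 and 22 share none.

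For 49 of the 53, the nearest coding gene by the deposited coordinates was tested too, with ties between overlapping genes settled by identifier. Both were called in 16 pairs, and 13 of these (81.2%) had the same direction. The share was 72.1% of 43 such pairs among the other lincRNAs and 63.6% of 2357 among protein-coding genes. The fold changes had a Pearson correlation of 0.56 across the 49 pairs, which share libraries and in part reads, beside 0.27 over 269 pairs of other lincRNAs and 0.21 over 12575 pairs of coding genes. At the top, Ptgs2os2, Gm20645, E230013L22Rik and 1200007C13Rik had a neighbour that rose, whereas the neighbours of Gm26809 and Gm16685 did not pass. Among the 10 largest falls, Tusc2 fell beside Gm9917, while Akap13, the gene of an anchoring protein 15153 bp from AU020206, and Cep83, a centriole gene 177 bp from Cep83os, were higher (0.87 ± 0.15 and 0.60 ± 0.17).

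**Figure D5:**
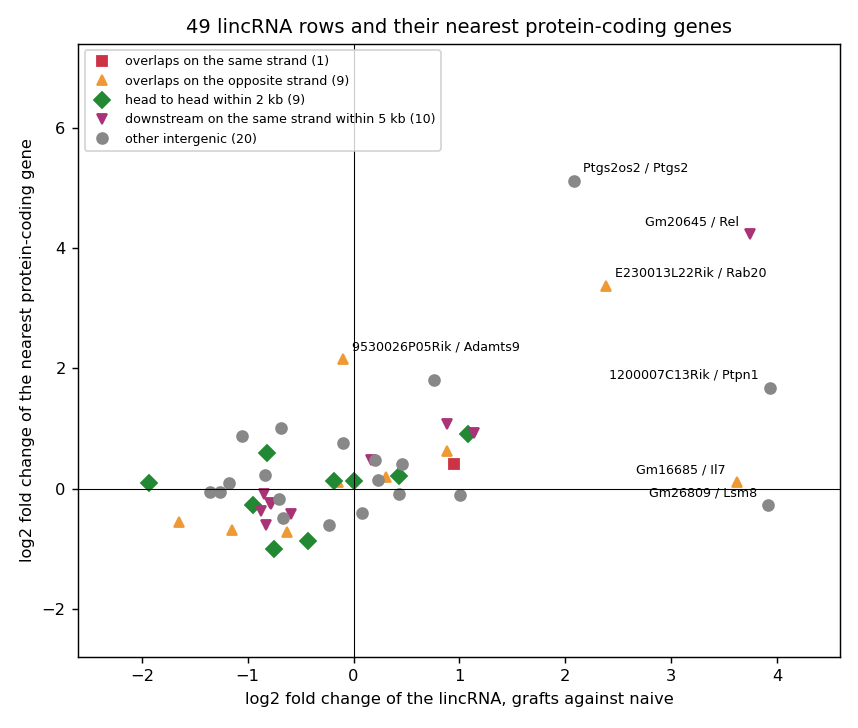
Log2 fold change of 49 lincRNAs (horizontal axis) and of their nearest protein-coding genes (vertical axis), grafts against naive, with symbols for relative position. Ptgs2os2, Gm20645, E230013L22Rik and 1200007C13Rik lie to the upper right, while Gm26809 and Gm16685 lie far right with neighbours near 0.

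Cell markers moved between naive lungs and grafts as well. All 10 neutrophil markers were higher, with a summed level of 139.5 to 196 CPM in naive lungs and 1627 to 4236 CPM in grafts, and Ly6g, which defines these cells, at 0.0572 to 0.253 and 6.80 to 20.9 CPM. All 6 mesothelial markers were lower (237 to 297 against 27.0 to 79.6 CPM, with Bnc1 at 0 in at least 1 graft), as were 6 of 7 B cell markers (78.5 to 110.0 against 33.4 to 51.9 CPM). Endothelial markers had 1 of 8 higher and 3 lower (4054 to 4412 against 2695 to 4525 CPM), fibroblast and smooth muscle markers 1 of 8 higher and 1 lower (1816 to 3146 against 1157 to 2417 CPM), and lung epithelial markers 1 of 8 higher (36798 to 46687 against 31035 to 47368 CPM). Monocyte and macrophage markers had 3 of 9 higher and 2 lower (322 to 372 against 339 to 529 CPM), and T cell markers 1 of 7 higher (32.4 to 37.2 against 35.4 to 61.8 CPM). Over all genes tested, 22.1% were higher and 19.7% lower. The part of these marker shifts in the lincRNA values was not tested. In whole lung, fewer cells of a type and less RNA per cell cannot be told apart. Gm19980, which lies 1986 bp downstream of the B cell gene Pax5 on its strand and is named here after its value was seen, fell by 0.83 ± 0.25 on the log2 scale (adjusted p = 0.0198), with naive lungs and grafts overlapping. Pax5 itself had -0.61 ± 0.30 and did not pass (adjusted p = 0.128). In GENCODE M21 the exons of Pax5 cover the whole of Gm19980, so reads of Gm19980 may belong to Pax5. Gm19980 had a mean of 242 reads in the naive lungs and 98 in the grafts, so it reached 100 reads only in the naive arm.

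Taken apart, the graft groups gave similar values, and both comparisons use the same naive lungs. In cold-ischemia grafts 9 lincRNAs were higher and 13 lower than in naive lungs, while 30.6% of all genes passed that comparison. In shock grafts 12 were higher and 18 lower, with 39.9% of all genes passing. Upper-quartile scaling gave 8 higher and 20 lower in the cold-ischemia grafts, where it called 13.8% of all genes higher and 21.3% lower. The 13 falls after cold ischemia became 7 without cold-ischemia replicate 1, 8 without cold-ischemia replicate 2 and 7 without naive replicate 1. Leaving out a library can lower the calls of all genes, and whether they dropped alike was not tested. The 6 largest rises passed in both: Gm26809 by 3.82 ± 0.24 and 4.00 ± 0.24 on the log2 scale (cold ischemia, then shock), Gm20645 by 3.84 ± 0.27 and 3.64 ± 0.26, and Ptgs2os2 by 2.11 ± 0.26 and 2.06 ± 0.26. Oip5os1 had -1.10 ± 0.13 and -1.26 ± 0.13. Neat1 passed in cold-ischemia grafts (-1.30 ± 0.40, adjusted p = 0.0299) and not in shock grafts (-0.45 ± 0.39, 0.381), and Snhg18 in shock grafts (-1.32 ± 0.25, 0.00206) and not in cold-ischemia grafts (-0.57 ± 0.25, 0.104). Neither difference between the graft groups passed the direct test, given next. In the authors' deposited tables, which use their own grouping, 13 of the 53 were higher and 20 lower in cold-ischemia grafts. In shock grafts 14 were higher and 18 lower, both at a deposited adjusted p under 0.05. The share of all genes passing in those tables is not given here, so these counts have no background beside them.

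Between shock and cold-ischemia grafts, edgeR called 0 of the 53 lincRNAs and 0% of all genes. At an unadjusted p under 0.05 there were 5 lincRNAs and 1152 genes in all, and the smallest adjusted p of a lincRNA was 0.671. DESeq2 called 0 lincRNAs and 0.0513% of its genes, and the grouping of the deposited tables gave 0 lincRNAs and 0.783% of all genes. The authors' deposited table for this comparison also had 0 lincRNAs under 0.05, with 0.0563 as the smallest. The 5 lincRNAs, named after their values were seen, were Snhg18 (log2 -0.75 ± 0.25, shock minus cold ischemia), 6030408B16Rik (-1.15 ± 0.44), ENSMUSG00000100493, which has a clone name, (-0.66 ± 0.24), D930016D06Rik (0.55 ± 0.20) and 2310015A10Rik (0.61 ± 0.20). For Snhg18 every shock graft (4.68 to 8.95 CPM) was below every cold-ischemia graft (10.2 to 15.3 CPM). For 6030408B16Rik, 7.07, 6.6 and 18 CPM after cold ischemia stood against 3.14, 3.24 and 7.91 CPM after shock, which overlap. Neat1 had 0.85 ± 0.39 and Malat1 0.53 ± 0.25 in this comparison, with unadjusted p of 0.055 and 0.0596 (edgeR).

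The 6 graft libraries covered a wider range than the 3 naive ones. Such a range grows with the number of libraries and takes in both graft groups, so whether grafts vary more was not tested. The ratio of the highest to the lowest graft had a median of 1.88 over the 53 lincRNAs, beside 1.27 for the naive lungs, where 3 libraries rather than 6 enter. It was above 2 for 21 lincRNAs and largest for 6030408B16Rik (5.74), Yam1 (4.39), Snhg1 (3.59) and Snhg12 (3.58), which are named for that order. Shock replicate 2 was often an extreme: it was the lowest graft for 18 lincRNAs, Gm20645 and Fendrr among them, and the highest for 11, Snhg1, Snhg12, Malat1 and Neat1 among them. Cold-ischemia replicate 1 was the highest graft for none and shock replicate 3 the lowest for 2.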

How the data were processed

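RNA of 9 whole left lungs of mice was measured from 1 µg of total RNA per library, with paired reads of 150 bases. The aligner STAR, the counter HTSeq, the fusion caller STAR-Fusion and the test packages edgeR and DESeq2 are named, with mm10, per the submitters' processing notes. Their versions and the gene annotation are not given in the sources used here. The authors deposited 3 tables with raw read counts per gene. The deposited normalized signal (counts divided by a size factor) was only checked, and the deposited FPKM served for levels between genes. The log2 fold changes and the p-values with adjusted p-values of the authors' tables are quoted only where named.

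The tables were joined by identifier; the 9 repeated library columns held 0 counts that differed. Groups follow the sample titles. Counts were scaled by TMM, filtered with filterByExpr to 15834 genes and fitted with edgeR 4.0.16 (quasi-likelihood, two-sided, R 4.3.3) over 9 libraries with a mean per group. Grafts against naive sets the mean of both graft groups against the naive group. P-values were adjusted over all genes (Benjamini-Hochberg) and called under 0.05. CPM uses TMM library sizes, and ± after a fold change is its standard error. The fit was tested on simulated data. Positions and nearest coding genes come from the tables' coordinates, and exons, shared bases and transcripts from GENCODE M21 for mm10, which may differ from the authors' annotation.

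The lincRNAs, the gene lists and the alternatives were chosen with earlier results of these data known. Named were the 10 largest rises and falls among called lincRNAs whose naive and graft libraries did not overlap, the 5 highest by FPKM, those on a list of known roles and those next to the threshold, with the nearest coding genes, and up to 3 genes per partner or cell list. 1 of the 10 rises and 1 gene of a partner list are not reported here. Others are said to be chosen after their values were seen. Alternatives were other scalings, filters, thresholds, DESeq2 1.42.0, the tables' grouping, a replicate block and leaving out libraries. Depth limits the rows near 100 reads most. Each standard error comes from the edgeR fit and takes in the spread between libraries as well as counting error.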

Additional observations from a re-analysis of the deposited data

How the results depend on the processing

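The counts of lincRNAs called against naive lungs depended on the abundance threshold by construction. With a minimum of 50 reads, which 99 lincRNAs reached, 50 were called in all grafts (23 higher), 40 in cold-ischemia grafts (18 higher, 22 lower) and 50 in shock grafts (23 higher). With a minimum of 200 reads, which 32 reached, 17 were called in all grafts (7 higher, 10 lower), 14 in cold-ischemia grafts (5 higher) and 16 in shock grafts (7 higher, 9 lower). Of all genes tested, the main fit called 41.8% in all grafts (22.1% higher, 19.7% lower). It called 30.6% in cold-ischemia grafts (17.5% higher, 13.1% lower) and 39.9% in shock grafts (22% higher, 17.9% lower). Upper-quartile scaling gave 20 falls in cold-ischemia grafts; the cause was not tested. Leaving out 1 library gave 22 to 32 calls in all grafts (22 without naive replicate 2), 16 to 26 in cold-ischemia grafts, with 7 to 15 falls there, and 21 to 31 in shock grafts. Without both grafts of uncertain group, 12 were higher and 18 lower over all grafts. Shares of all genes called in the fits with libraries left out are not given here. Of 252 alternative counts, 233 were within 1.5 times the reported one. Of 521 alternative fits of the 29 named lincRNAs in all grafts, 496 kept their side of the threshold, 7 lost the call, 18 gained it (Snhg12, Neat1 and Gm26782) and 6, of Malat1 and Yam1, which were not called, changed sign. Between shock and cold-ischemia grafts no alternative called a lincRNA among the 53 or the named ones, and 35 of 521 changed sign.

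Replicate numbers did not pair the libraries: same-numbered libraries had correlations of -0.394 to 0.0965 in their deviations from the group means. With the replicate block, 11 lincRNAs were higher and 18 lower in all grafts, 8 and 10 in cold-ischemia grafts, 10 and 16 in shock grafts, and 0 were called between the graft groups. Shares of all genes called with the block are not given here.

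Lowly counted rows, rows that share exonic bases without known strand, 3 lungs per group and the naive lungs' separate source limit these values.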
